A study of Homo sapiens with 6 samples.

Results

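The genes of the proteasome were followed in 253J cells, a human bladder cancer line, with and without knockdown of FTO, the enzyme that removes N6-methyladenosine marks from RNA. Members were all protein-coding genes whose symbol is PSMA, PSMB, PSMC, PSMD, PSME, PSMF or PSMG followed by a number, without the immunoproteasome genes PSMB8 and PSMB9. The rule used names and no measured value, and it found 46 of the 60483 genes in the count files. RNA-seq was done on 3 samples titled control (replicates 1 to 3) and 3 titled siFTO, for FTO siRNA (replicates 4 to 6). No other treatment and no time point stand in the labels. The labels speak of siRNA, whereas the methods of the study describe short hairpin RNA in a lentiviral vector for FTO knockdown, and neither source says whether the replicates were separate transfections. The p-values then measure the spread between these 6 libraries, all of a single cell line.

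The 26S proteasome degrades proteins tagged with ubiquitin. Its 20S core is a barrel of alpha and beta rings in which 3 beta subunits (PSMB5, PSMB6 and PSMB7) hold the proteolytic sites, and the 19S particle caps the barrel with a base of ATPases that unfold substrates and a lid that removes ubiquitin. Other caps activate the core without ATP, and dedicated chaperones assemble rings and base before they leave the finished particle. The subunits occur in fixed numbers per particle, and many of their genes are induced together by the transcription factor NFE2L1 when proteasome activity falls short.

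Total counts were 10991789 to 19891269 in the control libraries and 13162731 to 15709975 in the siFTO libraries. Levels are given as CPM, read counts scaled to a library of common size with TMM factors, changes as log2 fold changes of siFTO over control with their standard errors (SE), and a gene passed when its Benjamini-Hochberg adjusted p from the edgeR quasi-likelihood test over 14965 genes was under 0.05. FTO itself was at 31.8, 21.4 and 31.2 CPM in the controls and at 20.2, 20.7 and 15.7 CPM in siFTO replicates 4, 5 and 6. It was lower by 0.57 on the log2 scale (SE 0.16, edgeR adjusted p = 0.0209), and this call was lost without control 1 or control 3, with an edgeR adjusted p of up to 0.113. The epithelial markers were all present (6 of 6, summed level 9104 to 11623 CPM in the controls and 8226 to 10413 CPM in siFTO), whereas of the 8 urothelial markers PPARG, at 53.8 to 75.0 CPM, carried nearly the whole sum and the uroplakins and GATA3 stayed under 1 CPM. The 9 fibroblast and mesenchymal markers summed to 17.8 to 18.8 CPM in the controls and 24.2 CPM in siFTO 6, but to 1066 CPM in siFTO 4 and 1277 CPM in siFTO 5, where VIM, COL1A1, COL1A2 and FN1 made up the sum. The 6 leukocyte markers followed the same split, from 3.75 to 4.93 CPM in the controls and 5.90 CPM in siFTO 6 to 65.8 and 79.8 CPM in siFTO 4 and 5, almost all of it CD74, while PTPRC was at 0 in 5 libraries and at 0.0707 CPM in siFTO 4. The part of this split in the results below was not tested. The count of called members, and the medians by part of the particle, are therefore given again without siFTO 4 and 5. In such bulk libraries fewer cells of a type and less RNA per cell cannot be told apart.

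Of the 46 members 44 had enough counts to be tested. PSMA8, the testis form of an alpha subunit, had no count in any library, and PSMB11, the thymus form of a beta subunit, had 1 count in siFTO 5 and 0 in the others. Among the 44, 9 were higher and 9 were lower in siFTO, and 26 did not pass. Over all genes tested 19.5% were called higher and 17.9% lower, so that the members were called about as often as genes in general in each direction. All 3 siFTO libraries lay above all 3 controls for 13 members and below them for 12, beside 25.8% and 25.6% of all genes. The median log2 fold change was −0.05 over the members and 0.01 over all genes. The median size of the change, without its sign, was 0.24 for the members and 0.31 for all genes, and 2339 genes past the threshold had a greater change than any member (0.63).

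**Figure D1:**
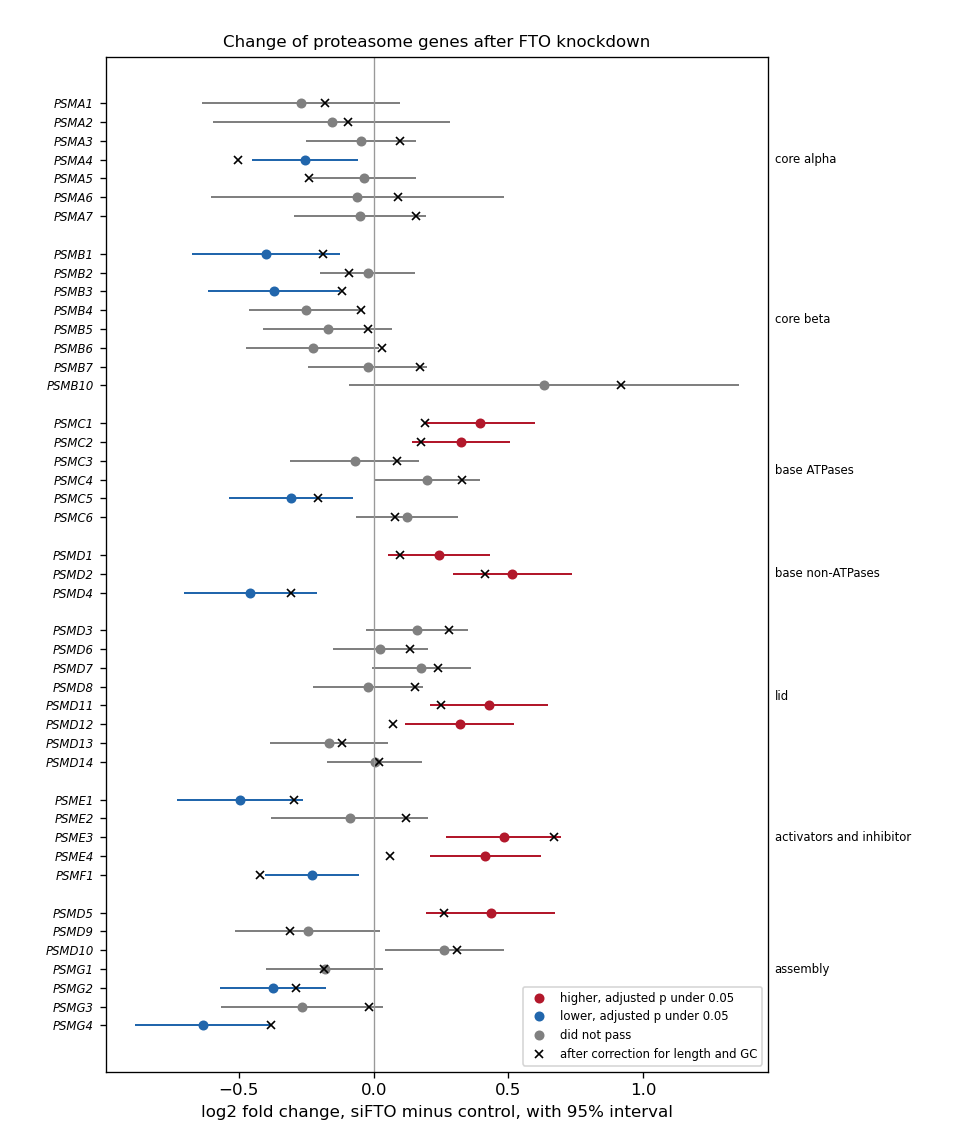
Log2 fold change (siFTO over control, horizontal axis) of the 44 tested proteasome genes, grouped by role; points are edgeR estimates, lines their 95% intervals, and crosses the estimates after correction for transcript length and GC content. Higher (red, 9 genes) and lower (blue, 9 genes) calls occur in most groups, and the red ones are absent from both core rings.

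Calls were counted by part of the particle. Of the 15 tested members of the 20S core 0 rose, 3 fell and 12 did not pass, with a median log2 fold change of −0.16. Of the 17 members of the 19S particle 6 rose, 2 fell and 9 did not pass, with a median of 0.16. Against the mean of the controls, the core median was −0.23, −0.02 and −0.15 in siFTO 4, 5 and 6 and that of the 19S particle was 0.11, 0.16 and 0.16. The 19S median thus lay above 0 in all 3 siFTO libraries and the core median below it. Over all genes 19.5% were called higher and 17.9% lower, and the core's 3 of 15 lower is near the latter share. The same shares stand beside the counts of the smaller groups below, each of which holds few genes. Without control 1 the counts were 0 higher and 0 lower in the core and 1 higher (PSMD2) and 1 lower (PSMD4) in the 19S particle. In the fit without siFTO 4 and 5 the medians were −0.19 in the core and 0.16 in the 19S particle. That fit rests on siFTO 6 alone against the same controls. The difference between the parts was not tested.

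Expression per length gives the order of the members. In the controls the beta genes PSMB3, PSMB4, PSMB1 and PSMB7 were highest, at 366 ± 53.3, 332 ± 34.8, 321 ± 60.8 and 317 ± 25.8 CPM per kb of transcript (mean ± SD, n = 3), followed by the alpha gene PSMA7 at 307 ± 42.5 CPM per kb. Neighbours in this order differed by less than the SD of the controls. The 19S members ran from 11.9 CPM per kb for PSMC1 to 210.0 CPM per kb for PSMD4. PSMA1, PSMA2, PSMA6 and PSMB10 stood at 1.03 to 14.0 CPM per kb, against 45.2 to 366 (median 194) for the 11 other core members tested. These 4 genes, and the assembly chaperone PSMD9, share 58.3 to 97.1% of their coding bases with another protein-coding gene on the same strand in the GENCODE 29 annotation. Those overlapping genes were listed at mean counts of 0 to 20.7. The levels of these 5 members are therefore uncertain. On the opposite strand, exons of another gene overlap 17 members, over 28.4% of the coding bases of PSMD7, 10.5% of those of PSMC5 and 47.7% of those of PSMC1. Of 44 pseudogenes named after proteasome genes 14 had a count, with 167 counts in all.

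**Figure D2:**
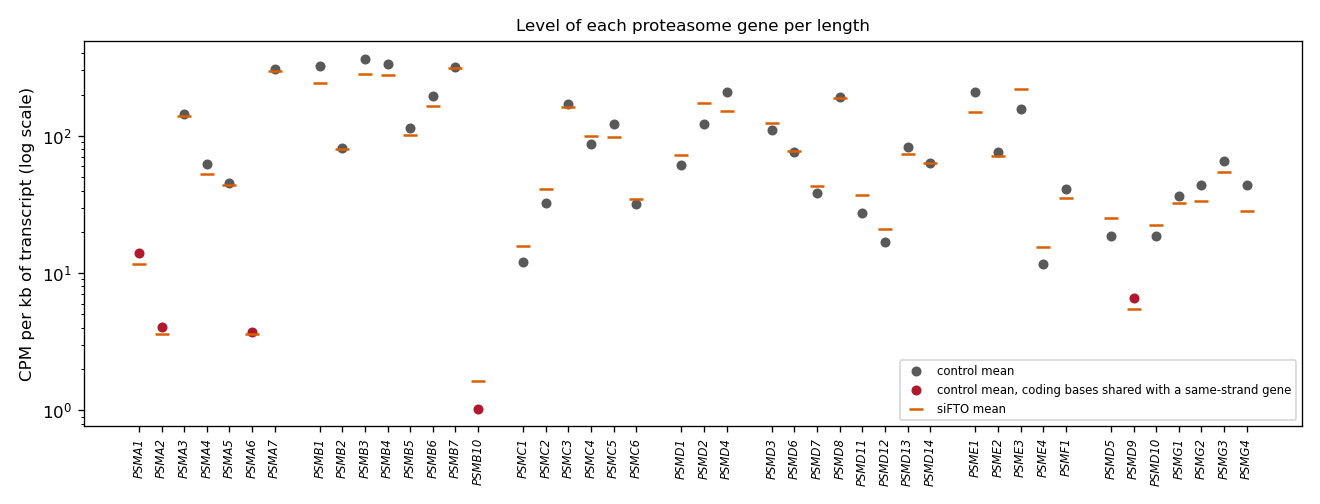
Mean level of each tested proteasome gene (CPM per kb of its principal transcript, log scale) in the 3 controls (dots) and the 3 siFTO libraries (bars). PSMA1, PSMA2, PSMA6, PSMB10 and PSMD9, marked in red, share most of their coding bases with a same-strand gene. Together with PSME4 and PSMC1, at 11.7 and 11.9 CPM per kb, they are the lowest of the 44 genes.

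In the alpha ring, which gates the barrel, 1 of 7 tested genes passed. PSMA4 was at 262.6, 298.1 and 268.8 CPM in the controls and at 234.7, 218.1 and 242.3 CPM in siFTO 4, 5 and 6. The groups did not overlap, and PSMA4 was lower by 0.26 (SE 0.09, edgeR adjusted p = 0.0422). This call is near the threshold and was kept in 1 of the 6 fits that left out a library, that without siFTO 6, with an edgeR adjusted p of up to 0.143. The other 6 alpha genes had log2 fold changes of −0.27 (PSMA1) to −0.04 (PSMA5), all below 0, and their groups overlapped.

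In the beta ring, 2 of 8 tested genes were lower and 0 were higher. PSMB1 was at 269.2, 362.8 and 261.4 CPM in the controls and at 222.1, 224.6 and 230.8 CPM in siFTO, a change of −0.40 (SE 0.12, edgeR adjusted p = 0.0268). PSMB3 was at 257.3, 330.1 and 260.3 CPM in the controls and at 209.8, 231.8 and 213.7 CPM in siFTO, a change of −0.37 (SE 0.11, edgeR adjusted p = 0.0227). Both are structural subunits without a proteolytic site, and in both control 2 stood well above the other 2 controls. The PSMB1 call was lost without control 1, siFTO 4 or siFTO 5 (edgeR adjusted p up to 0.0916), and the PSMB3 call without any 1 of the 3 controls or without siFTO 4 (up to 0.0917). PSMB4, another structural subunit, did not overlap between the groups but missed the threshold (−0.25, edgeR adjusted p = 0.0579). PSMB2 had a log2 fold change of −0.02.

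The 3 proteolytic subunits did not pass. PSMB5, which carries the chymotrypsin-like activity and is the main target of bortezomib, was at 134.0, 168.9 and 140.5 CPM in the controls and at 121.5, 142.9 and 129.5 CPM in siFTO. PSMB6, with the caspase-like activity, was at 153.1, 187.5 and 155.1 CPM in the controls and at 139.8, 157.1 and 126.6 CPM in siFTO. PSMB7, with the trypsin-like activity, was at 291.0, 339.0 and 301.3 CPM in the controls and at 304.9, 334.1 and 278.2 CPM in siFTO. In all 3 the groups overlapped. Their log2 fold changes were −0.17 (95% interval −0.41 to 0.06) for PSMB5, −0.23 (−0.47 to 0.02) for PSMB6 and −0.02 (−0.24 to 0.20) for PSMB7. PSMB10, which replaces PSMB7 in the immunoproteasome, was at 0.93, 1.27 and 1.55 CPM in the controls and at 2.55, 2.18 and 1.24 CPM in siFTO 4, 5 and 6. Its 2 high values were in the libraries with the mesenchymal and leukocyte markers, siFTO 6 lay among the controls, and the change of 0.63 did not pass (edgeR adjusted p = 0.149). Without siFTO 6 it did (0.0368).

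**Figure D3:**
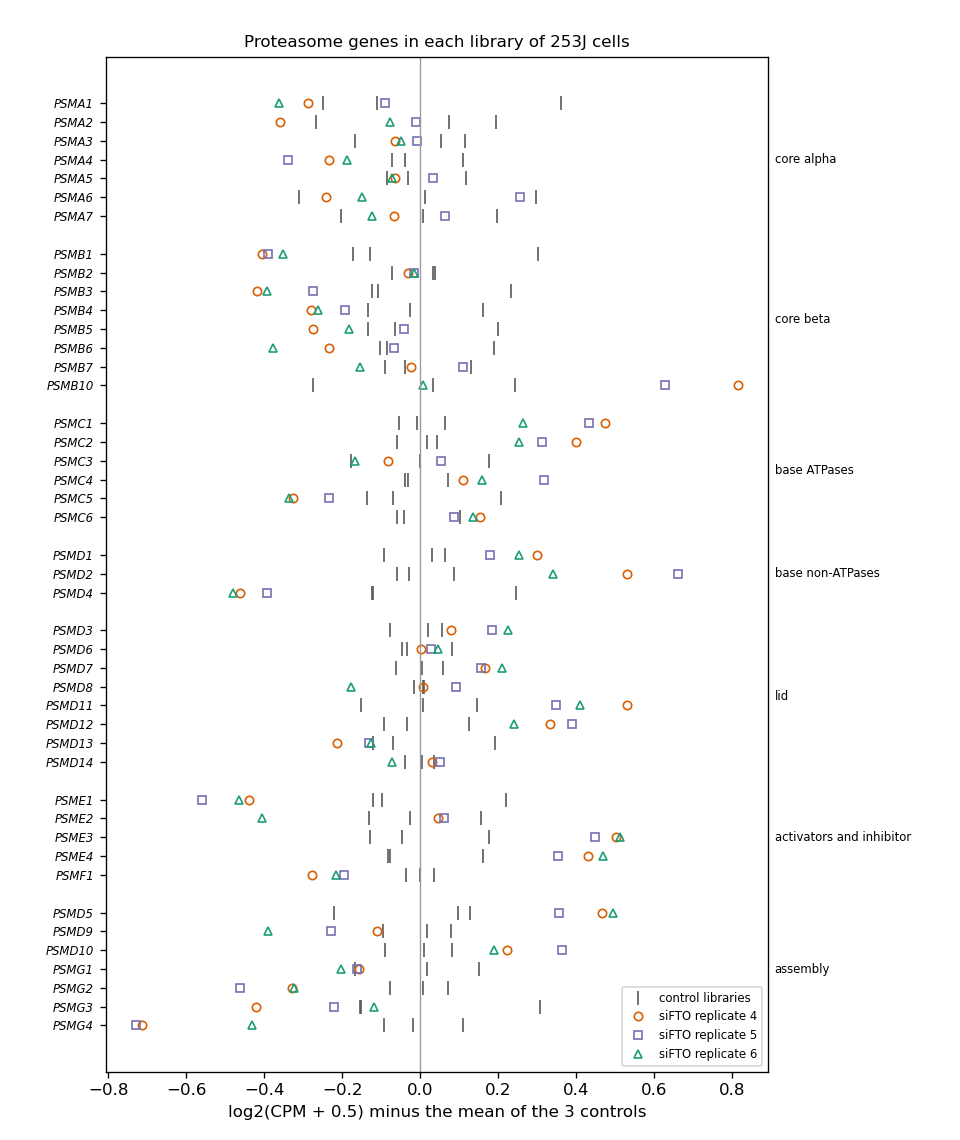
Level of each tested proteasome gene in each library, as log2(CPM + 0.5) minus the mean of the 3 controls (horizontal axis); grey ticks are the controls and open symbols the 3 siFTO libraries. For PSMD2, PSME3, PSMD4, PSME1 and PSMG4 all siFTO symbols lie on one side of the controls, whereas for PSMB5, PSMB7 and PSMD14 the symbols overlap the range of the controls.

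Among the 6 ATPases of the base, 2 were higher, 1 was lower and 3 did not pass. PSMC1 was at 52.8, 51.1 and 55.5 CPM in the controls and at 73.9, 71.9 and 63.9 CPM in siFTO, a change of 0.39 (SE 0.09, edgeR adjusted p = 0.00817). PSMC2 was at 100.8, 95.4 and 102.5 CPM in the controls and at 131.5, 123.7 and 118.7 CPM in siFTO, a change of 0.32 (SE 0.08, edgeR adjusted p = 0.0114). In both genes siFTO 6 was the lowest of its group but still above every control. PSMC5 was at 174.4, 221.5 and 182.8 CPM in the controls and at 153.0, 163.0 and 151.9 CPM in siFTO, lower by 0.31 (SE 0.10, edgeR adjusted p = 0.0366). These 3 ATPases sit in the same ring, so the ring's genes moved in opposite directions. The PSMC5 call was kept in the fit without siFTO 6 and lost in the other 5 that left out a library (edgeR adjusted p up to 0.121), and that of PSMC2 was lost without control 1 or siFTO 4 (up to 0.0655). That of PSMC1 was lost without control 1 (0.0521). The opposite-strand gene over PSMC1 is NRDE2, and that over part of PSMC5 is FTSJ3. Reads in the shared bases of each pair cannot be told apart if strand was ignored in the counting. No source used here gives that setting. The changes of PSMC3, PSMC4 and PSMC6 were −0.07, 0.20 and 0.12.

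All 3 non-ATPase members of the base passed. PSMD2, the scaffold on which ubiquitin shuttles and the deubiquitinase USP14 dock, was at 402.5, 411.1 and 445.5 CPM in the controls and at 606.2, 663.1 and 530.6 CPM in siFTO. The gene lies at chr3:184298709-184309054 of GRCh38, and its change of 0.52 (SE 0.10, edgeR adjusted p = 0.0036) was a rise to 1.43 times the control level. PSMD1, the second large scaffold, was at 189.7, 206.5 and 211.3 CPM in the controls and at 249.1, 229.0 and 241.1 CPM in siFTO, higher by 0.24 (SE 0.08, edgeR adjusted p = 0.0426). PSMD4, a receptor for ubiquitin chains (chr1:151254703-151267479), moved the other way. It was at 258.3, 333.5 and 258.8 CPM in the controls and at 204.0, 214.1 and 201.4 CPM in siFTO, lower by 0.46 (SE 0.11, edgeR adjusted p = 0.00948). PSMD2 and PSMD4 passed in each of the 6 fits that left out a library, with edgeR adjusted p of up to 0.0388 and 0.0437, and PSMD1 passed in 0 of them (up to 0.169).

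In the lid 2 of 8 genes were higher and 0 were lower. PSMD11 was at 113.3, 101.3 and 124.6 CPM in the controls and at 163.1, 143.6 and 149.8 CPM in siFTO, a change of 0.43 (SE 0.10, edgeR adjusted p = 0.00749). PSMD12 was at 69.1, 72.0 and 80.5 CPM in the controls and at 93.0, 96.7 and 87.1 CPM in siFTO, a change of 0.32 (SE 0.09, edgeR adjusted p = 0.0187). Both encode helical scaffold subunits of the lid, and in both every siFTO library lay above every control. The PSMD11 call was lost without control 1 (edgeR adjusted p = 0.0586) and the PSMD12 call without control 1, control 2, siFTO 4 or siFTO 5 (up to 0.0966). PSMD14, the metalloprotease that cuts ubiquitin chains from substrates, was at 119.9, 126.4 and 123.8 CPM in the controls and at 126.0, 127.8 and 117.4 CPM in siFTO. The groups overlapped, and the interval of its change, 0.00, ran from −0.17 to 0.18. PSMD3 and PSMD7 did not overlap between the groups but missed the threshold (0.16 and 0.18, edgeR adjusted p = 0.151 and 0.111).

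The caps other than the 19S particle were split. PSME1 (chr14:24136158-24138967), a subunit of the interferon-inducible PA28 activator, was at 196.0, 244.3 and 193.1 CPM in the controls and at 154.7, 142.2 and 152.1 CPM in siFTO, lower by 0.50 (SE 0.10, edgeR adjusted p = 0.00535). Its partner PSME2 was at 105.2, 119.4 and 97.8 CPM in the controls and at 110.5, 111.7 and 80.7 CPM in siFTO. PSME2 overlapped between the groups, with siFTO 4 and 5 among the controls and siFTO 6 below them, and its change was −0.09 (95% interval −0.38 to 0.20). PSME3 (chr17:42824385-42843758), which forms the nuclear PA28 cap, was at 151.2, 142.9 and 176.8 CPM in the controls and at 221.6, 213.6 and 223.0 CPM in siFTO, higher by 0.48 (SE 0.10, edgeR adjusted p = 0.00409). PSME4, the single-chain nuclear activator PA200, was at 78.2, 78.1 and 92.4 CPM in the controls and at 111.6, 105.8 and 114.7 CPM in siFTO, higher by 0.41 (SE 0.09, edgeR adjusted p = 0.00666). The genes of both nuclear caps thus rose, and siFTO 6 was the highest library for each. PSMF1, which encodes the inhibitor PI31, was at 180.6, 171.8 and 176.2 CPM in the controls and at 145.2, 153.8 and 151.7 CPM in siFTO, lower by 0.23 (SE 0.08, edgeR adjusted p = 0.0385). PSME1 and PSME3 passed in each fit that left out a library (edgeR adjusted p up to 0.0315 and 0.0457). The PSME4 call was lost without control 1 (0.061) and that of PSMF1 without control 1, control 3, siFTO 4 or siFTO 5 (up to 0.151).

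**Figure D4:**
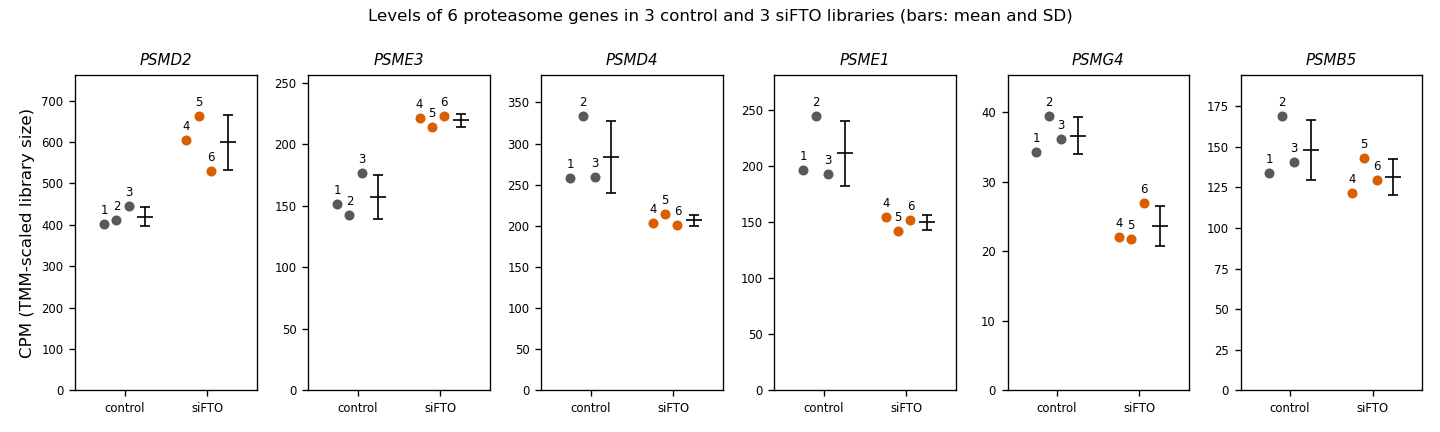
Levels (CPM of the TMM-scaled library, axes from 0) of 6 proteasome genes in the 3 control (grey) and 3 siFTO (orange) libraries, numbered by replicate, with group mean and SD. PSMD2 and PSME3 lie higher and PSMD4, PSME1 and PSMG4 lower in every siFTO library than in every control, whereas for PSMB5 the groups overlap.

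Of the 7 assembly factors 1 was higher, 2 were lower and 4 did not pass. PSMG4 (chr6:3231403-3303373), which pairs with PSMG3 under the growing alpha ring, was at 34.2, 39.4 and 36.1 CPM in the controls and at 22.1, 21.8 and 27.0 CPM in siFTO. Its change of −0.63 (SE 0.11, edgeR adjusted p = 0.00265), to 0.645 times the control level, was the greatest of the 18 called members, and it passed in each fit that left out a library (up to 0.0238). Its partner PSMG3 was at 80.8, 111.4 and 80.8 CPM in the controls and at 67.1, 77.2 and 82.9 CPM in siFTO, and did not pass (−0.27, 95% interval −0.56 to 0.03). The other alpha ring chaperone is the pair PSMG1 and PSMG2. PSMG2 was at 77.0, 73.7 and 69.4 CPM in the controls and at 58.3, 53.1 and 58.5 CPM in siFTO, lower by 0.37 (SE 0.09, edgeR adjusted p = 0.0088). PSMG1 was at 70.1, 87.5 and 79.7 CPM in the controls and at 70.7, 70.3 and 68.4 CPM in siFTO, and did not pass (−0.18, 95% interval −0.39 to 0.03). In each pair 1 partner passed and the other had a value of the same sign. PSMD5, a chaperone of the ATPase base, was at 68.0, 54.5 and 69.5 CPM in the controls and at 88.1, 81.5 and 89.8 CPM in siFTO, higher by 0.43 (SE 0.11, edgeR adjusted p = 0.0105). The base chaperones PSMD9 and PSMD10 did not pass (−0.25 and 0.26, edgeR adjusted p = 0.13 and 0.0559). Without control 1 the calls of PSMG2 (edgeR adjusted p = 0.0512) and PSMD5 (0.0531) were lost.

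A single library weighed on many of these calls. Without control 1, the shallowest library, 13 of the 18 called members no longer passed, leaving 2 higher and 3 lower. Calls over all genes also fell in that fit, to 1383 higher and 1612 lower of 16181 tested, from 2913 and 2684 of 14965. Control 2 was the highest control for 24 of the 44 members (54.5%), beside 38.3% of all genes. The 5 members that passed in each of the 6 fits that left out a library were PSMD2, PSME3, PSMD4, PSME1 and PSMG4. Without siFTO 4 and 5 together, which leaves siFTO 6 alone against the controls on the assumption that it varies as they do, 1 member was higher and 0 were lower, beside 6.17% and 5.89% of all genes. That member was PSME3, at 0.51. The values of PSMD2, PSMD4, PSME1 and PSMG4 in that fit were 0.34, −0.49, −0.47 and −0.44. The signs of all 5 values were given beforehand, because siFTO 6 lies outside the range of the 3 controls for each of these genes. These signs add no support to the calls. The proteasome genes took 0.616 to 0.664% of all counts in the controls and 0.668 to 0.699% in siFTO. With library totals alone in place of TMM scaling, 14 members were higher and 3 lower, beside 27.3% and 11.9% of all genes, and the median of all genes moved to 0.13 and that of the members to 0.07.

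Transcript length moved with the direction. Across the 44 members, Spearman's rho of the length of the principal transcript and the log2 fold change was 0.456, and across 14887 genes it was 0.398; genes share the 6 libraries and are not independent replicates. Among the 22 members with the longer transcripts (above a median of 1579.5 bases) 8 were higher and 3 lower, with a median change of 0.14. Among the 22 with the shorter ones 1 was higher and 6 were lower, with a median of −0.16. The annotated transcripts of the core genes were short (median 1029 bases) and those of the 19S genes longer (1991 bases). PSME3, annotated at 998 bases and higher, and PSMA4 and PSMF1, at 4411 and 4290 bases and lower, went against the trend. After a correction for length and GC content 8 members were higher and 7 lower, beside 13.5% and 19.0% of all genes, and rho over the members was 0.041. Of the 18 calls 10 remained, and those of PSMC1, PSMC2, PSMC5, PSMD1, PSMD12, PSME4, PSMB1 and PSMB3 did not, while PSMC4, PSMD3, PSMD7 and PSMD10 became higher and PSMD9 lower. The core median was then −0.05, with 0 higher and 1 lower, and the 19S median 0.13, with 5 higher and 1 lower. PSMD2, PSME3, PSMD4, PSME1 and PSMG4 kept their calls, at 0.42, 0.67, −0.31, −0.29 and −0.38. Whether length itself had a part in the changes was not tested, and the annotated principal transcript may not be the one these cells express.

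**Figure D5:**
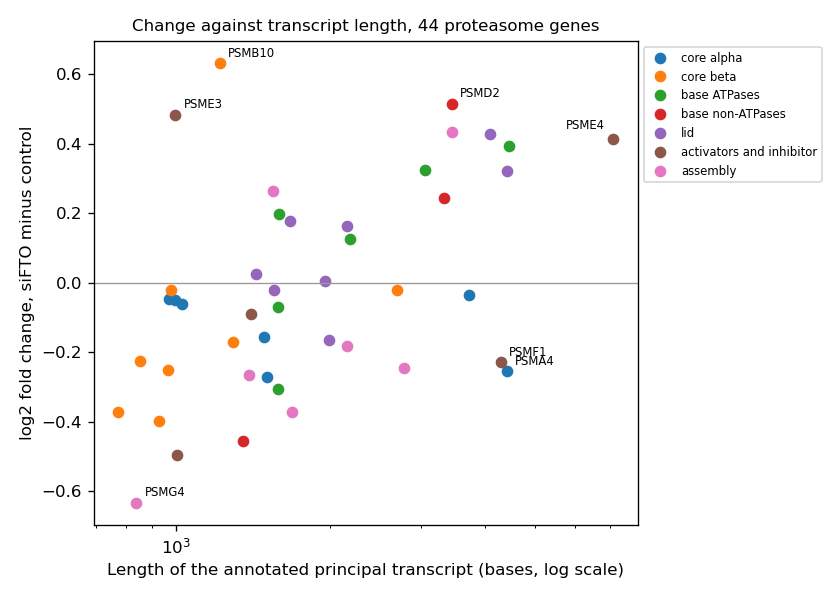
Log2 fold change (siFTO over control) of the 44 tested proteasome genes against the length of the annotated principal transcript (bases, log scale), coloured by role. Longer transcripts lie higher in the plot (rho 0.456). PSMA4 and PSMF1, with long annotated transcripts, fell, and PSME3, with a short annotated transcript, rose.

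Promoters were searched for 3 short sequences bound by transcription factors. RefSeq windows (GRCh38.p14, 250 bases before to 50 after a start) were at hand for 40 members, as 48 windows, and for PSMA7, PSMB1, PSMB6, PSMB7, PSMD4 and PSMG3 no window was in the table. On both strands, the core of the antioxidant response element TGACNNNGC, bound by NFE2L1 and NFE2L2, was in 14 of the 48 windows (29.2%) and in 13.3% of all 35116 windows. The ETS core CCGGAAG was in 15 (31.3%) beside 10.3% of all windows, and CCAAT in 19 (39.6%) beside 34.6%. None of the 3 letter strings contains another. The antioxidant core was in 4 of 10 windows of higher members, 5 of 12 of lower members and 5 of 24 of members that did not pass, and the ETS core in 4, 2 and 8 of them. CCAAT was in 2, 3 and 13 of them, and the other windows belong to untested members. A match is a description of the letters and not a bound site. The 150 bases before the start are shown for 4 of the 5 members that passed in each fit, so that their matches can be seen side by side, with the matched letters in capitals. PSME1 (chr14:24136044-24136193, plus strand) has the antioxidant core, PSMG4 (chr6:3258797-3258946, plus strand) the ETS core and PSME3 (chr17:42833247-42833396, plus strand) the CCAAT box, the last pair read on the minus strand. PSMD2 (chr3:184299091-184299240, plus strand, the first of its windows) has no match.
PSME1: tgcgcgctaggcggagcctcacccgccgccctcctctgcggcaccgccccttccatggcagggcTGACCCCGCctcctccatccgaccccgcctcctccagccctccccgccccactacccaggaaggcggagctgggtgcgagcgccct
PSMG4: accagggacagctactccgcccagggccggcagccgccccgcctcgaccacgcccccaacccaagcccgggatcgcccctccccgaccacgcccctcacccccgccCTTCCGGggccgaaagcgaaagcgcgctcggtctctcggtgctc
PSME3: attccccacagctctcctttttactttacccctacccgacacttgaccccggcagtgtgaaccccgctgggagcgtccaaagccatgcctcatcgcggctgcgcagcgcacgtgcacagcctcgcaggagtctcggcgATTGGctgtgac
PSMD2: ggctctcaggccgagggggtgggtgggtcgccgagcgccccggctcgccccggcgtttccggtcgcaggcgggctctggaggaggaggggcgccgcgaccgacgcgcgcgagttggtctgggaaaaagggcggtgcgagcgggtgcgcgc

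Of 31 other genes of the pathway, listed by name, 9 rose, 5 fell and 17 did not pass, beside the same 19.5% and 17.9% of all genes, with a median log2 fold change of 0.06. Higher were 3 of the 9 genes bound to the proteasome, 4 of the 8 ubiquitin shuttles and unfoldase genes, and 1 of the 4 ubiquitin genes. These groups make up most of the list. UBE3C, a ubiquitin ligase that acts on the proteasome, was at 113.0, 94.1 and 110.4 CPM in the controls and at 165.5, 175.0 and 163.4 CPM in siFTO, higher by 0.67 (SE 0.09, edgeR adjusted p = 0.00101). ZFAND5, a proteasome activator, was at 64.1, 63.6 and 61.6 CPM in the controls and at 95.3, 96.9 and 78.4 CPM in siFTO, higher by 0.52 (SE 0.10, edgeR adjusted p = 0.00349). UBQLN1, a shuttle of ubiquitylated proteins, was at 150.3, 145.3 and 146.3 CPM in the controls and at 207.1, 197.3 and 208.0 CPM in siFTO, higher by 0.47 (SE 0.08, edgeR adjusted p = 0.00185). All 3 were higher in every siFTO library than in every control. The values of UBE3C, ZFAND5 and UBQLN1 without siFTO 4 and 5 were 0.63, 0.32 and 0.50. Their signs were given beforehand, because siFTO 6 lies above every control for each of these genes, and add no support to the calls. The other higher genes were UBA6 (0.46), DDI2 (0.45), NPLOC4 (0.44), UFD1 (0.39), RAD23B (0.31) and USP14 (0.28), and the redox protein TXNL1, also bound to the proteasome, was lower by 0.29. The RAD23B call was lost without control 1, siFTO 4 or siFTO 5 (edgeR adjusted p up to 0.0769), that of TXNL1 without control 1, control 2, siFTO 4 or siFTO 5 (up to 0.101), and that of USP14 without any 1 of the 6 libraries (up to 0.133). After correcting for length and GC content 7 of the 31 genes were higher and 4 lower, beside the 13.5% and 19.0% given above. The calls of ZFAND5 (0.21, edgeR adjusted p = 0.106), UBA6 (0.07, 0.518), DDI2 (0.06, 0.762), RAD23B (0.09, 0.389) and USP14 (0.00, 0.976) were then lost. UBE3C, UBQLN1, NPLOC4 and UFD1 still passed, at 0.42, 0.27, 0.31 and 0.44.

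The parts and chaperones of the particle outside the naming rule gave 0 higher and 3 lower of 6. PAAF1, a chaperone of the base, was at 25.0, 28.6 and 23.8 CPM in the controls and at 17.5, 16.2 and 17.3 CPM in siFTO, lower by 0.60 (SE 0.11, edgeR adjusted p = 0.00304). PSMB8, the immunoproteasome form of PSMB5, was at 45.0, 63.4 and 47.6 CPM in the controls and at 33.9, 42.4 and 34.3 CPM in siFTO, lower by 0.50 (SE 0.14, edgeR adjusted p = 0.0211). PSMB9, the immunoproteasome form of PSMB6, was at 4.47, 6.76 and 4.08 CPM in the controls and at 5.31, 5.47 and 3.79 CPM in siFTO. The groups overlapped for PSMB9 and its change of −0.07 did not pass, while the lid component SEM1 was lower by 0.40 (SE 0.12, edgeR adjusted p = 0.0256). The PSMB8 call was lost without control 2, control 3 or siFTO 4 (edgeR adjusted p up to 0.086), and that of SEM1 without control 1, control 3, siFTO 4 or siFTO 5 (up to 0.0778). Both were also lost after correcting for length and GC content (−0.28 and −0.29, edgeR adjusted p = 0.0694 and 0.0524), whereas PAAF1 still passed at −0.85. POMP, which guides the beta ring, was at 221.2, 237.7 and 201.2 CPM in the controls and at 191.4, 187.0 and 218.0 CPM in siFTO, a change of −0.15 that did not pass.

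Of the regulators of the subunit genes 1 was higher and 1 was lower of 4. NFE2L1, the activator of proteasome genes named above, was at 207.3, 172.5 and 196.8 CPM in the controls and at 222.1, 226.2 and 194.0 CPM in siFTO. The groups overlapped, and its change was 0.16 (95% interval −0.06 to 0.38). DDI2, the protease that releases NFE2L1 into its active form, was higher by 0.45 (SE 0.11, edgeR adjusted p = 0.00947). Its value without siFTO 4 and 5 was 0.64, with a sign given beforehand because siFTO 6 lies above every control. The DDI2 call was lost without control 1 (edgeR adjusted p = 0.0545) and after correcting for length and GC content (0.06, 0.762). NFE2L2, the oxidative stress factor related to NFE2L1, was at 185.4, 157.1 and 180.6 CPM in the controls and at 132.9, 128.9 and 126.0 CPM in siFTO. It was lower by 0.43 (SE 0.09, edgeR adjusted p = 0.00476), with every siFTO library below every control.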

How the data were processed

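RNA-seq of 253J cells was analysed from 3 control and 3 siFTO samples. The authors deposited raw counts of reads per gene, 1 file per sample. Per the labels, TopHat2 2.0.11 and HTSeq stand in the submitters' notes on processing, with the builds hg19 and GRCh37. No source used here gives the strand setting or the annotation, and how reads were counted decides the values of overlapping genes.

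From the counts, edgeR 4.0.16 (R 4.3.3) filtered genes (filterByExpr, minimum count 10, minimum total 15), scaled by TMM and fitted a two-sided quasi-likelihood test on the group alone, with Benjamini-Hochberg adjustment over all 14965 genes and a threshold of 0.05. The fit was tested on simulated data with far fewer changed genes than were called here, so that test gives no error rate for these calls. CPM used TMM-scaled sizes of the filtered libraries. Depths of 10991789 to 19891269 counts gave a median SE of 0.10 over the members. Lengths, GC content and coordinates came from GENCODE 29 (GRCh38), matched by gene ID without version, and promoters from RefSeq (GRCh38.p14), matched by symbol. The correction for length and GC content used natural splines with 5 degrees of freedom as offsets, and 78 genes had no length. Alternatives were other scalings and filters, DESeq2 1.42.0, limma 3.58.1 voom and fits without single libraries.

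Members and lists were chosen with earlier results of these data known. Values in every library are given for up to 3 members per role and direction past the threshold, by size of change, for the proteolytic subunits, PSMB10, PSMD14, PSME1 to PSME4 and PSMG1 to PSMG4, for up to 3 other pathway genes per direction, and for NFE2L1, POMP, PSMB8 and PSMB9.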

Additional observations from a re-analysis of the deposited data

How the results depend on the processing

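With all libraries 9 members were higher and 9 lower, with a median log2 fold change of −0.05; 9 other pathway genes were higher and 5 lower, and 2913 genes were higher and 2684 lower in all. Library totals alone gave 14 members higher and 3 lower, a median of 0.0746, 3 other pathway genes lower and 1787 genes lower. Correction for length and GC content gave a member median of 0.0662. Without siFTO 4 and 5 together the values were 1 and 0 members, a median of −0.13, 3 and 0 other pathway genes, and 970 and 926 genes. At an adjusted p under 0.01 they were 5 and 4 members, 7 and 2 other pathway genes, and 1411 and 1338 genes. Leaving out 1 library gave 2 to 9 members higher and 3 to 10 lower, a median of −0.10 to 0.00, 6 to 8 other pathway genes higher and 2 to 5 lower, and 1383 to 3826 genes higher and 1589 to 2928 lower. The fewest members came without control 1 (2 and 3). DESeq2 called 9 and 10 members, beside 2694 genes higher and 2488 lower of 14965, and voom 9 and 9, beside 2690 and 2611. DESeq2-type size factors gave 9 and 9, beside 2887 and 2699, and upper-quartile factors 8 and 10, beside 2647 and 2915. No filter gave 8 and 7, beside 3724 and 2338 of 30886 genes. A filter of 10 counts in every library gave 9 and 9, beside 2802 and 2649 of 13595 genes. Of the 18 called members 0 changed sign past the threshold under the 16 alternatives. The cause of these shifts was not tested, beyond the fewer samples in the fits that leave libraries out. No paired analysis was possible because the groups share no replicate number. Depth limited PSMB10, at about 1 to 3 CPM, and the overlapping PSMA6 and PSMA2.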
